A study of Mus musculus with 12 samples.

Results

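The genes described here are 10 genes that mark eosinophils, basophils and mast cells: Prg2, Epx, Ear1, Ear2, Ear6 and Ear10 for eosinophils, and Mcpt8, Cpa3, Ms4a2 and Fcer1a for basophils and mast cells. They were found by gene symbol in the deposited table, where all 10 of the 10 were present among 12199 genes. RNA-seq had been run on whole BM mononuclear cells of C57BL/6 mice of 4 genotypes, WT, DF, TF and TFD, to ask how pairs and the triple combination of leukemia alleles alter the marrow. DF mice carried Dnmt3aFlox/+ with MxCre and Flt3 ITD/+. TF mice carried Tet2+/- and Flt3 ITD/+, with no Cre in their label. TFD mice carried Tet2+/-, Flt3 ITD/+ and Dnmt3aFlox/+ with MxCre. Flt3 ITD is an internal tandem duplication of a receptor tyrosine kinase, Tet2 encodes an enzyme that oxidizes methylated DNA, and Dnmt3a encodes a DNA methyltransferase. MxCre is switched on by interferon, so all mice, WT included, had received poly(I:C) as young adults some weeks before. The values come from 11 libraries, with 3 each of WT, DF and TF and 2 of TFD.

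Eosinophils store major basic protein (Prg2), eosinophil peroxidase (Epx) and a family of eosinophil-associated ribonucleases (the Ear genes) in their granules, and are released from marrow in response to interleukin 5. Basophils and mast cells carry the high-affinity IgE receptor, which is built from the ligand-binding alpha chain Fcer1a, the signal-amplifying beta chain Ms4a2 and a shared gamma chain. Both cell types also store granule proteases, of which Mcpt8 is a basophil protease of the mouse and Cpa3, carboxypeptidase A3, is made by mast cells, basophils and their progenitors. All of these cells are rare in marrow, and in whole BM fewer cells of a type cannot be told apart from less RNA per cell.

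Levels are given as CPM, gene counts scaled to the library total with TMM factors, and a gene was called when its Padj, the Benjamini-Hochberg adjusted p of edgeR's quasi-likelihood test over all 12175 genes tested, was under 0.05 (DESeq2 is named where its value is given). Library totals ran from 8274153 to 15900904 reads. The labels number the libraries of a genotype without naming the mice, so the p-values measure the spread between these libraries. WT replicate 3, TF replicate 3 and TFD replicate 2 held over 10000 Xist reads, the mark of female mice, and the other 8 did not. In the genotypes that carry each allele, Tet2 and Dnmt3a RNA overlapped the WT range: Tet2 ran from 148 to 169 CPM in WT, from 136 to 205 in TF and from 163 to 209 in TFD, and Dnmt3a from 30.9 to 57.8 in WT, from 38.0 to 46.4 in DF and from 54.4 to 58.6 in TFD. Flt3 RNA did not overlap, with 20.8 to 30.1 CPM in WT, 33 to 59.2 in DF, 55.4 to 71.3 in TF and 58.8 to 130 in TFD, and was called higher in all 3 (Padj = 0.0185, 0.0023 and 0.000552). In genotypes without the allele, Tet2 was called higher than WT in DF (log2 fold change 0.493, Padj = 0.0261) and Dnmt3a in TF (0.576, Padj = 0.0444). Counts over a whole gene do not show whether an exon was deleted or duplicated.

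In TF marrow the eosinophil ribonuclease genes Ear1 and Ear2 rose and 3 of the 4 basophil and mast cell genes fell. Ear1, Ear2 and Ear10 were higher than in WT, while Cpa3, Ms4a2 and Fcer1a were lower, so 6 of the 10 genes were called in TF against 34.6% of all genes tested. Of all genes, 19% were called higher and 15.6% lower in TF, 21% and 16.6% in DF, and 14.7% and 11.6% in TFD. In DF marrow 1 of the 10, Ear2, was called higher, against 37.6% of all genes. In TFD marrow 1 of the 10, Ear10, was called higher, against 26.3% of all genes, and that call rests on a single library. Ear10 entered the test only through the libraries in which it is high, so its calls give no independent support, and the table cannot show whether its reads in those libraries reflect expression of the gene. Without it 5 of the other 9 genes were called in TF and none in TFD. The abundant granule genes Prg2 and Epx and the protease gene Mcpt8 were called in none of these comparisons by this test. All 3 comparisons use the same WT libraries. As a background for statements on groups that do not overlap, every DF library lay above every WT library in 28.8% of all genes and below in 22.5%, every TF library above in 26.1% and below in 22.9%, and every TFD library above in 26% and below in 23.5%.

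Ear1, Ear2 and Ear10 are close copies that lie near each other on chromosome 14, with Ear6 farther off on the same chromosome and less alike, which bears on how their reads can be assigned. In mm10, the build the authors aligned to, the table places Ear10 at chr14:43922898-43923368, Ear1 at chr14:43818765-43819639, Ear2 at chr14:44102654-44103531 and Ear6 at chr14:51853768-51854642. Aligned base by base, the transcripts of Ear1 and Ear2 were 96.2% identical and those of Ear2 and Ear10 97% identical. Those of Ear1 and Ear6 were 88.6% identical. Of all stretches of 50 bases in the Ear1 transcript, 57.4% also occur in the transcript of another gene, as do 56.2% of those of Ear10 and 41.5% of those of Ear2, but only 1.36% of those of Ear6. The other copies were Ear1, Ear2, Ear10 and the pseudogenes Ear-ps2 and Ear-ps9. The authors kept uniquely aligned reads, so the levels of Ear1, Ear2 and Ear10 rest on the parts of each gene that differ, and their split among the copies is uncertain. The 250 bases before each start site, from RefSeq on GRCm38.p6, are shown so that the copies can be compared outside the transcript as well. The windows are chr14:43819640-43819889 on the minus strand, chr14:44102404-44102653 on the plus strand, chr14:43923597-43923846 on the minus strand and chr14:51853518-51853767 on the plus strand. The RefSeq start site of Ear10 lies upstream of the single exon that the table lists for it. All 4 are printed 5′ to 3′ in lower case.
Ear1: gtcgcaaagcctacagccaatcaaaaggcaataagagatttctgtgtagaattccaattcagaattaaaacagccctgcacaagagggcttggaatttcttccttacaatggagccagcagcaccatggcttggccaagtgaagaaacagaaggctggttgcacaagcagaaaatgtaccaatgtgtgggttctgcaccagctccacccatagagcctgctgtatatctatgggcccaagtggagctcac
Ear2: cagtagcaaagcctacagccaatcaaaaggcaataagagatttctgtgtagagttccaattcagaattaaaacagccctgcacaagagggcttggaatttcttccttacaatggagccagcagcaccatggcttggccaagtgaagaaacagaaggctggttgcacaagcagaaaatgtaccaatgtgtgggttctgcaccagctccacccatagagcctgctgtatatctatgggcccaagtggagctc
Ear10: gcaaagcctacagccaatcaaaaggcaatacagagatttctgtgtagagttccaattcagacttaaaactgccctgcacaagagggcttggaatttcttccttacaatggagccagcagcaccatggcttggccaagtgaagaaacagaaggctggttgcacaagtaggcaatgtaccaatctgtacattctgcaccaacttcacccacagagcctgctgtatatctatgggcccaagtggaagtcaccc
Ear6: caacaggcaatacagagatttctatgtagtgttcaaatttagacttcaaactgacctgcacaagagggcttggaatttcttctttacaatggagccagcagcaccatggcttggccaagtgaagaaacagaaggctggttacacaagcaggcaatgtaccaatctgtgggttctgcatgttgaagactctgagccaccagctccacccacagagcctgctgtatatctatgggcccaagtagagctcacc
Over these windows Ear1 and Ear2 were 99.2% identical, Ear1 and Ear10 93.5% identical and Ear1 and Ear6 85.1% identical.

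Ranked by mean level per kilobase of exon over the 11 libraries, Prg2 stood first at 295 ± 101 CPM per kb (SD, n = 11). Mcpt8 followed at 57.9 ± 18.0 CPM per kb, and Prg2 was above it in 11 of 11 libraries. Ear1 (27.5 CPM per kb), Epx (19.7) and Cpa3 (19.3) came next, and these neighbours were not separated by their spread: Ear1 was above Epx in 7 libraries and Epx above Cpa3 in 6. Fcer1a (12.2 CPM per kb) and Ear2 (11.8) overlapped in the same way, with Fcer1a higher in 4 libraries. Cpa3 was above Fcer1a in 11 of 11 libraries. Ms4a2 stood at 6.46 CPM per kb, Ear6 at 3.83 and Ear10, which had no read in 5 of the libraries, at 2.31. The order pools all genotypes, and in WT alone the mean of Ear1 (18.4) was below those of Cpa3 (24.9) and Epx (23.2). Lengths were those of the whole gene, but uniquely aligned reads come only from the parts of Ear1, Ear2 and Ear10 that differ. The places of these Ear genes in the order are therefore uncertain.

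Prg2, at chr2:84980461-84983632, encodes the major basic protein of the eosinophil granule. Its level was 202, 209 and 248 CPM in WT, 195, 282 and 257 in DF, 182, 471 and 257 in TF, and 149 and 263 in TFD. TF replicate 2 stood at 471 CPM and the other libraries ran from 149 to 282 CPM. Every mutant genotype overlapped WT. The log2 fold change was 0.15 (SE 0.29, Padj = 0.699) in DF, 0.47 (SE 0.29, Padj = 0.235) in TF and -0.10 (SE 0.33, Padj = 0.863) in TFD by edgeR's quasi-likelihood test. Without TF replicate 2 the value in TF was -0.0013.

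Epx, at chr11:87863998-87875536, encodes the peroxidase that generates hypohalous acids. Its level was 59.4, 47.8 and 80.0 CPM in WT, 34.8, 43.2 and 35.1 in DF, 40.8, 101.6 and 67.7 in TF, and 23.7 and 49.5 in TFD. All DF libraries lay below all WT libraries, whereas TF and TFD overlapped WT. Against WT the log2 fold change was -0.73 (SE 0.31, Padj = 0.0868) in DF, 0.16 (SE 0.31, Padj = 0.710) in TF and -0.78 (SE 0.36, Padj = 0.128) in TFD. The DF value was just short of the threshold here and passed it when only DF and WT libraries were fitted (Padj = 0.00268) and with a replicate block (Padj = 0.0423), as well as without TF replicate 1, TF replicate 2 or TFD replicate 2 (0.0468 to 0.0493), and it was -0.54 (Padj = 0.249) without WT replicate 3. The TFD value was -1.39 (Padj = 0.0382) without TFD replicate 2 and -0.34 (Padj = 0.597) without TFD replicate 1. Prg2 and Epx therefore did not keep the same ratio: Prg2 was 3.10 to 4.38 times Epx in WT and 5.60 to 7.32 times Epx in DF, in CPM. In TF it was 3.80 to 4.64 times Epx, which overlapped WT, and in TFD 6.28 and 5.32 times.

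Ear1 encodes a secreted ribonuclease of the eosinophil granule. Its level was 9.69, 9.90 and 19.7 CPM in WT, 17.0, 25.4 and 15.2 in DF, 26.4, 40.9 and 26.3 in TF, and 17.0 and 8.47 in TFD. Every TF library was above every WT library, and both DF and TFD overlapped WT. In TF the log2 fold change was 1.25 (SE 0.32), a level 2.37 times that in WT, with an adjusted p of 0.0103. In DF it was 0.55 (SE 0.32, Padj = 0.196), and in TFD -0.03 (SE 0.37, Padj = 0.963). The call in TF was made in all 18 alternative settings, leaving out each library included, and the DF value was 0.94 (Padj = 0.0478) without WT replicate 3 and 0.29 (Padj = 0.554) without DF replicate 2.

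Ear2 is the copy nearest to Ear1 among the 4 Ear genes described here. Its level was 5.58, 4.58 and 4.39 CPM in WT, 9.13, 11.8 and 8.81 in DF, 10.7, 15.7 and 7.48 in TF, and 11.1 and 3.65 in TFD. All DF and TF libraries exceeded all WT libraries, and the TFD libraries lay on either side of them. It was the only one of the 10 genes called in DF, with a log2 fold change of 1.03 (SE 0.36, Padj = 0.0386). In TF the change was 1.22 (SE 0.36, Padj = 0.0195), and in TFD 0.62 (SE 0.40, Padj = 0.273). Scaling by library totals ended the call in DF (Padj = 0.0608), as did leaving out any 1 of the WT and DF libraries (adjusted p from 0.06015 to 0.126). The call in TF was lost without WT replicate 2, WT replicate 3 or TF replicate 2, with adjusted p from 0.0616 to 0.0869, and the TFD value was 1.19 (Padj = 0.0293) without TFD replicate 2 and turned to -0.41 (Padj = 0.525) without TFD replicate 1.

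Ear6 is the most distant of the 4 copies, and few of its reads can be shared. Its level was 1.48, 0.866 and 2.87 CPM in WT, 2.30, 3.86 and 1.78 in DF, 2.26, 6.79 and 4.65 in TF, and 2.25 and 0.891 in TFD. The TF mean was the highest, but TF replicate 1 lay below WT replicate 3. The log2 fold change in TF was 1.36 (SE 0.50), with an adjusted p of 0.0527 that missed the threshold, and with DESeq2 the adjusted p was 0.0334. It also passed with a term for Xist reads and without WT replicate 3, TF replicate 1 or either TFD library (adjusted p from 0.0253 to 0.0496), while without TF replicate 2 the value was 0.95 (Padj = 0.209). In DF it was 0.60 (SE 0.52, Padj = 0.381) and in TFD -0.13 (SE 0.60, Padj = 0.900).

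Ear10 had more than 3 reads in 4 of the 11 libraries. Counts, not scaled, were 0, 1 and 0 in WT, 3, 0 and 0 in DF, 43, 38 and 22 in TF, and 48 and 0 in TFD. All TF libraries were thus far above all WT and DF libraries, and the TFD libraries were split, with TFD replicate 1 at 3.0 CPM, within the TF range of 2.01 to 3.47 CPM, and TFD replicate 2 at 0 reads, which allows up to 0.267 CPM (3 reads). Ear10 passed the filter on low counts only through the 4 libraries in which it is high. Summed over libraries, TF had 91 times the Ear10 level of WT (103 reads against 1, 95% exact interval 16 to 3630) and 36.9 times that of DF (103 reads against 3, interval 12.3 to 182). These intervals cover counting error only. It was called higher in TF than WT (Padj = 0.00463), in all 18 alternative settings, and higher in TFD than WT (Padj = 0.0234). The TFD call was lost with DESeq2 (Padj = 0.0843) and without any 1 WT library, and without TFD replicate 1 the direction turned, with an adjusted p of 0.692. Rprl1, Rprl2 and Rprl3, genes for copies of the RNA of ribonuclease P, each had more reads in every one of the same 4 libraries than in any of the other 7, and their part in the Ear10 result was not tested.

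**Figure D1:**
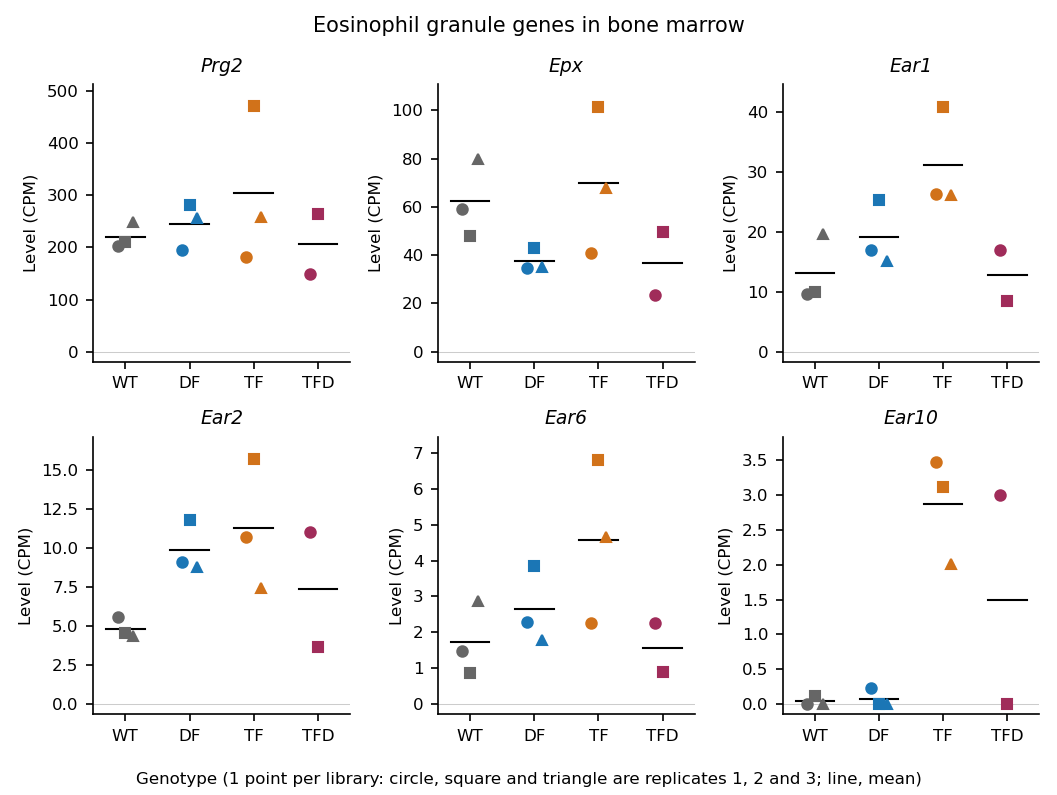
Level in CPM (vertical axis, from 0) of each eosinophil gene in every library of WT, DF, TF and TFD, with 1 point per library and a line at the mean of each genotype. TF replicate 2 (square) is the highest point for Prg2, Epx, Ear1, Ear2 and Ear6, and Ear10 is high in the 3 TF libraries and TFD replicate 1.

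Mcpt8, at chr14:56082164-56085197, encodes mast cell protease 8, in spite of its name a protease of basophils. Its level was 65.7, 46.8 and 54.4 CPM in WT, 38.7, 42.1 and 65.7 in DF, 30.9, 51.4 and 36.0 in TF, and 73.7 and 28.7 in TFD. Every genotype overlapped WT, and the TFD libraries were the highest and the lowest of all 11. The log2 fold change was -0.20 (SE 0.30, Padj = 0.633) in DF, -0.50 (SE 0.31, Padj = 0.224) in TF and -0.11 (SE 0.34, Padj = 0.838) in TFD. The 95% interval in TF ran from -1.10 to 0.10, which includes both a 2-fold fall and no change.

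Cpa3, at chr3:20215616-20242181, encodes carboxypeptidase A3, which is stored with heparin and other proteases in the granule. Its level was 33.3, 39.5 and 35.8 CPM in WT, 26.9, 22.8 and 46.0 in DF, 16.0, 24.1 and 15.9 in TF, and 31.6 and 16.9 in TFD. All TF and TFD libraries lay below all WT libraries, while DF replicate 3 was the highest library of all. In TF the log2 fold change was -0.95 (SE 0.28, Padj = 0.0182), which is 0.516 times the WT level. It was -0.19 (SE 0.27, Padj = 0.603) in DF and -0.56 (SE 0.31, Padj = 0.197) in TFD. The call in TF was lost without WT replicate 2 (Padj = 0.0591) and without TF replicate 1 (Padj = 0.0687).

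Ms4a2, at chr19:11615521-11623719, encodes the beta chain of the IgE receptor. Its level was 21.6, 23.9 and 29.4 CPM in WT, 14.7, 17.9 and 24.9 in DF, 9.13, 13.7 and 11.9 in TF, and 19.9 and 13.01 in TFD. TF and TFD libraries all lay below WT, TF libraries also lay below all DF libraries (13.7% of all genes did so), and DF replicate 3 reached into the WT range. In TF the log2 fold change was -1.11 (SE 0.23), or 0.464 times WT, with an adjusted p of 0.00282, the smallest of the 10 genes in this comparison, and the call was made in all 18 alternative settings. It was -0.39 (SE 0.22, Padj = 0.188) in DF and -0.59 (SE 0.25, Padj = 0.102) in TFD. The DF value was -0.64 (Padj = 0.0458) without DF replicate 3 and -0.25 (Padj = 0.462) without DF replicate 1.

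Fcer1a, at chr1:173221271-173227229, encodes the alpha chain that binds IgE. Its level was 14.7, 18.2 and 23.1 CPM in WT, 9.29, 9.59 and 17.6 in DF, 5.66, 10.1 and 10.3 in TF, and 14.4 and 5.17 in TFD. All TF and TFD libraries were again below all WT libraries, by a small gap in TFD replicate 1. In TF the log2 fold change was -1.11 (SE 0.36, Padj = 0.0318), or 0.464 times WT. It was -0.63 (SE 0.35, Padj = 0.178) in DF and -0.90 (SE 0.40, Padj = 0.12) in TFD. The TF call was lost without WT replicate 2, WT replicate 3 or TF replicate 1, with adjusted p from 0.0686 to 0.12. The DF value was called when only DF and WT were fitted (-0.67, Padj = 0.0358), and the TFD value was -1.85 (Padj = 0.0173) without TFD replicate 1 and -0.36 (Padj = 0.545) without TFD replicate 2.

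**Figure D2:**
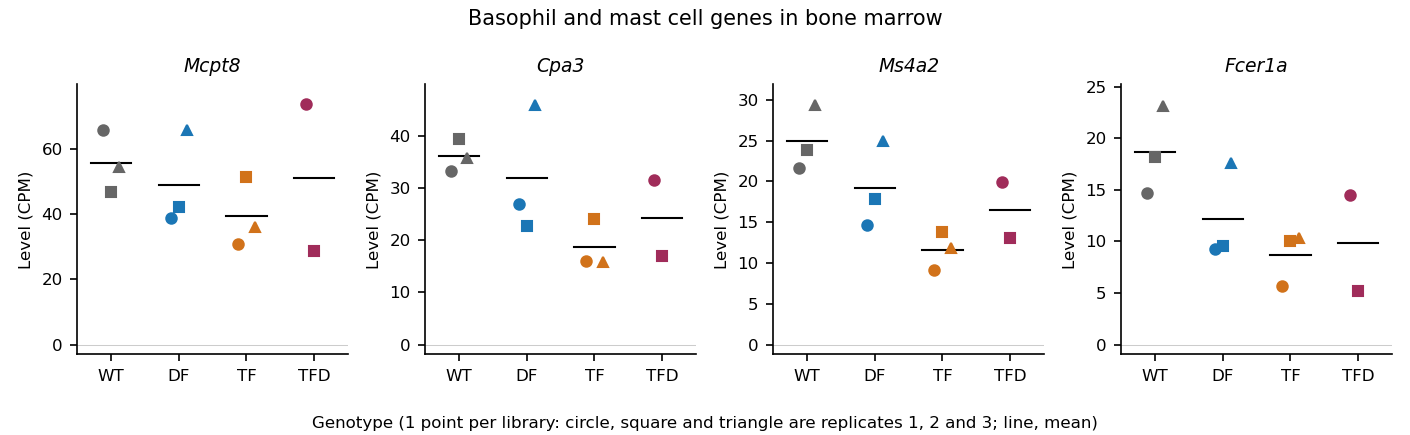
Level in CPM (vertical axis, from 0) of each basophil and mast cell gene in every library, with 1 point per library and a line at the mean of each genotype. For Cpa3, Ms4a2 and Fcer1a the 3 TF libraries sit below the 3 WT libraries, and for Mcpt8 they overlap.

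The upstream sequences of Cpa3, Ms4a2 and Fcer1a, the 3 genes called lower in TF, are shown with their GATAA matches. GATA factors act in the basophil and mast cell lineage and bind DNA at sites that contain GATA. The 250 bases before each RefSeq start site (GRCm38.p6) are printed 5′ to 3′ with GATAA, or TTATC where it lies on the opposite strand, in capitals. The windows are chr3:20242182-20242431, chr19:11623720-11623969 and chr1:173227230-173227479, all on the minus strand.
Cpa3: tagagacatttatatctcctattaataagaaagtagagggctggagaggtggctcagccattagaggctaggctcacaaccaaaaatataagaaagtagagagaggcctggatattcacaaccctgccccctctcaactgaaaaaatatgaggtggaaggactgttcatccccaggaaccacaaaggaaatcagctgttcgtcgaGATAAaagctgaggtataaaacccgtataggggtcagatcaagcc
Ms4a2: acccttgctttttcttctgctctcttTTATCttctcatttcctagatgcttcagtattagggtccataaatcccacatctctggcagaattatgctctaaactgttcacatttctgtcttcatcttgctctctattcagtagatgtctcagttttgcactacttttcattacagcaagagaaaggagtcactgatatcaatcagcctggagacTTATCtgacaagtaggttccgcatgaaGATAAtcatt
Fcer1a: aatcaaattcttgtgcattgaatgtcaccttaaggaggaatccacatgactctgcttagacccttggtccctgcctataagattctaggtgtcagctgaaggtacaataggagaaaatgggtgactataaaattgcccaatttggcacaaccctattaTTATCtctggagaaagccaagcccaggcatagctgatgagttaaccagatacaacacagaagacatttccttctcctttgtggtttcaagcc
With both strands searched, 22.6% of all 32851 promoter windows of this length held GATAA on at least 1 strand. Cpa3 held 1 match, 45 bases before the start, Ms4a2 held 3, at 224, 37 and 10 bases, and Fcer1a held 1, at 92 bases. The windows of Mcpt8, Epx and the 4 Ear genes held none, and Prg2 has no entry. A match is a stretch of letters and not a measured binding site, and these data hold no measurement of binding. Whether GATA factors had a part in the fall of these genes in TF was not tested.

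Read as a group over all libraries, the 4 basophil and mast cell genes had values below WT in every mutant genotype. All 4 log2 fold changes were negative in DF, TF and TFD, with medians of -0.29, -1.03 and -0.58, where the medians over all genes tested were 0.05, 0.02 and 0.01. The sign did not hold throughout in DF and TFD, since Cpa3 in DF was at 0.0080 without DF replicate 2, and Mcpt8 in TFD was at 0.41 without TFD replicate 2 and 0.024 without WT replicate 1. In TF 3 of the 4 fell, and in DF and TFD none of the 4 passed the test. All libraries lay below WT for 3 of the 4 genes in TF, against 22.9% of all genes, and for 3 of the 4 in TFD, against 23.5% of all genes. The 5 eosinophil genes without Ear10 had medians of 0.55 in DF, 1.22 in TF and -0.10 in TFD, and the difference between DF and TFD was not called for any of them.

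**Figure D3:**
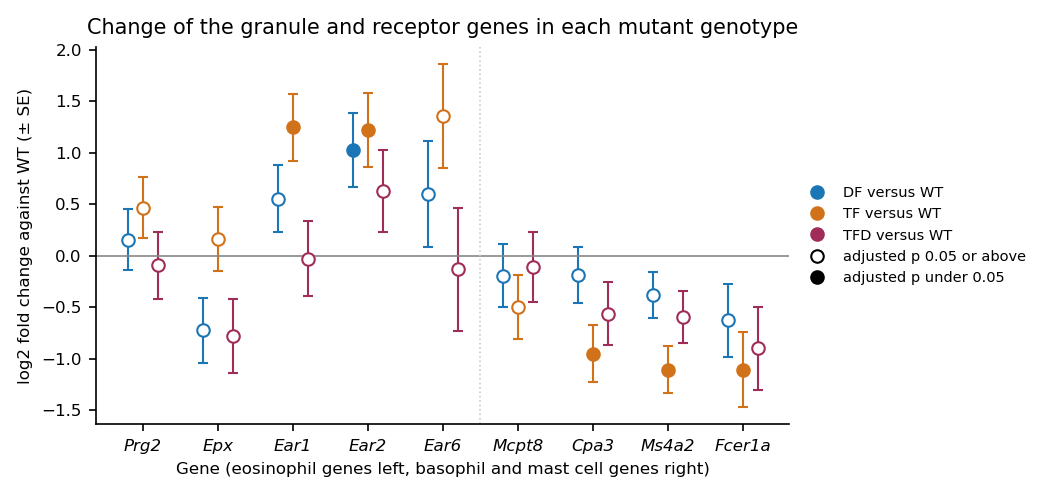
Log2 fold change against WT (vertical axis, with SE bars) of 9 genes in DF, TF and TFD, with filled points for an adjusted p under 0.05. Ear10 is left out because its fitted change depends on the prior count. In TF the points for Ear1 and Ear2 are filled above 0 and those for Cpa3, Ms4a2 and Fcer1a are filled below 0.

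Compared with each other, the mutant genotypes had 1 of the 10 genes called, and that call gives no independent support. Ear10 was lower in DF than in TF (Padj = 0.0242), having passed the filter only through TF libraries and TFD replicate 1. In this comparison 5.94% of all genes were called, 1.67% higher and 4.27% lower in DF, and 12.1% had every DF library below every TF library. That call was lost with DESeq2 (Padj = 0.109) and without any 1 DF library (adjusted p from 0.0525 to 0.122). Ms4a2 and Cpa3 were higher in DF than TF by 0.72 (SE 0.23, Padj = 0.0885) and 0.76 (SE 0.28, Padj = 0.136) on the log2 scale without passing the test, and Epx was lower in DF by 0.89 (SE 0.31, Padj = 0.128). DESeq2 called Ms4a2 (adjusted p of 0.0472), and Epx was called without TF replicate 1 (-1.16, Padj = 0.0383) and stood at -0.52 (Padj = 0.376) without TF replicate 2. Between TF and TFD none of the 10 was called, against 0.0164% of all genes, and 3 of the 10 (Ear1, Epx and Ear6) had an unadjusted p under 0.05, against 8.77% of all genes. The largest gaps there were Ear6, higher in TF by 1.49 (SE 0.57, Padj = 0.490), and Ear1, higher by 1.28 (SE 0.36, Padj = 0.279), and the libraries of neither overlapped, as was so in this direction for 12% of all genes. With DESeq2 the Ear1 difference was called (Padj = 0.0340). Between DF and TFD none of the 10 and 0% of all genes were called by edgeR, with 1727 genes (14.2%) and 1 of the 10, Ear10, at an unadjusted p under 0.05. The joint test of any difference among DF, TF and TFD called none of the 10 and 2.96% of all genes, with the smallest adjusted p at Ear10 (0.0667) and Ear1 (0.122). With 2 TFD libraries that differ widely in these genes, intervals for TFD are broad.

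Libraries of the same genotype differed in a way that ran through several genes at once. TF replicate 2 was the highest of all 11 libraries for 5 of the 6 eosinophil genes. Within DF, replicate 2 was highest for 5 of the 6 eosinophil genes, and replicate 3 was highest for all 4 basophil and mast cell genes. The TFD libraries crossed over: replicate 1 was the higher for 8 of the 10 genes, among them all 4 basophil and mast cell genes and all 4 Ear genes, and replicate 2 was the higher for Prg2 and Epx. Prg2 was 8.75 times Ear1 in TFD replicate 1 and 31.1 times Ear1 in TFD replicate 2, in CPM, so these levels did not keep 1 ratio. Ear1 had 272 and 95 reads in these libraries, and the split of reads among the Ear copies is uncertain.

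Patterns over the 11 libraries were compared by the root mean square difference of centred log2 CPM, where 0 is an identical profile. Among the 10 genes the closest pair was Cpa3 and Ms4a2 (0.213), followed by Ms4a2 and Fcer1a (0.294) and Mcpt8 and Cpa3 (0.298). Prg2 and Epx differed by 0.378, Ear1 and Ear6 by 0.332 and Ear1 and Ear2 by 0.439. Prg2 and Ear2 were further apart (0.690), and Ear10 differed by 2.86 or more from every other gene. Among the 11182 genes whose mean log2 CPM reached 1, the profiles most like Prg2 were Prg3 (0.238), Alox15 (0.301), Sfxn4 (0.303), Chchd4 (0.308) and Ckap2 (0.310), where the median over all genes was 0.478. Those most like Mcpt8 were Prss34 (0.189), Ncam1 (0.192), Pxmp2 (0.192), Dab2ip (0.228) and Csf3r (0.233), with a median of 0.498. Those most like Ear2 were Hist1h2ai (0.274), Nme4 (0.287), Hist1h2be (0.293), Zbtb11os1 (0.294) and Zfp184 (0.304), with a median of 0.673. The libraries are shared by all of these values, so likeness describes these 11 libraries.

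Other eosinophil genes were called in both directions. Of 18 further eosinophil genes listed, 8 were in the table and tested. In DF 2 rose and 2 fell, and in both TF and TFD 1 rose and 2 fell. Such counts stand beside 21% of all genes called higher and 16.6% lower in DF, 19% and 15.6% in TF, and 14.7% and 11.6% in TFD. The receptor genes Il5ra and Ccr3 fell in all 3 mutant genotypes. Il5ra, the interleukin 5 receptor alpha chain, was at 3.78, 4.33 and 5.19 CPM in WT, 0.635, 1.74 and 1.19 in DF, 1.21, 2.62 and 2.74 in TF, and 1.06 and 1.34 in TFD. Every mutant library was below every WT library. The log2 fold change of Il5ra was -1.87 (Padj = 0.00248) in DF, -1.02 (Padj = 0.0459) in TF and -1.89 (Padj = 0.00747) in TFD. The TF call was lost without any 1 WT library, DF replicate 3, TF replicate 1 or TF replicate 2, and the TFD call without TFD replicate 1 (largest adjusted p 0.165 and 0.0623).

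Ccr3, the eotaxin receptor, was at 5.99, 4.21 and 8.77 CPM in WT, 0.318, 0.965 and 0.594 in DF, 1.21, 0.491 and 2.83 in TF, and 0.938 and 0.891 in TFD. It too was below WT in every mutant library. Its log2 fold change was -3.29 (SE 0.54, Padj = 0.000538) in DF, -2.09 (SE 0.49, Padj = 0.00586) in TF and -2.78 (SE 0.60, Padj = 0.00448) in TFD, and these calls were made in all 18 alternative settings. The ribonuclease gene Rnase2a, by contrast, had 0, 0 and 1 reads in WT, 17, 14 and 2 in DF, 33, 38 and 18 in TF, and 53 and 2 in TFD. Every mutant library had more than the WT libraries, by a single read in 2 of them. Summed reads were 27.1 times WT in DF (95% exact interval 4.54 to 1100), 78.6 times in TF (13.8 to 3140) and 63.5 times in TFD (10.9 to 2550), with adjusted p of 0.0336, 0.0034 and 0.0102 by edgeR. Rnase2a, like Ear10, passed the filter only through mutant libraries in which it is high, so these p-values give no independent support. The TFD call was lost without TFD replicate 1 (Padj = 0.447), and the DF call without any 1 WT library, DF replicate 1 or DF replicate 2 (up to 0.105). Siglecf, a sialic acid receptor of eosinophils, rose in DF by 0.80 (SE 0.24, Padj = 0.0187), a call lost without WT replicate 2, WT replicate 3 or DF replicate 1 (up to 0.0672). Prg3, which encodes a second major basic protein, and Alox15, Adora3 and Padi4 were not called against WT. Padi4 was higher in DF than TF by 0.77 (Padj = 0.029), a call lost without any 1 DF library, TF replicate 1 or TF replicate 3 (up to 0.142). Its reads in whole BM cannot be assigned to eosinophils.

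Among 30 further basophil and mast cell genes listed, 15 were in the table and tested. In DF 2 rose and 5 fell, in TF 1 rose and 7 fell, and in TFD 1 rose and 3 fell, where 16.6%, 15.6% and 11.6% of all genes fell. The median log2 fold change was -0.12 in DF, -0.67 in TF and -0.39 in TFD. Hdc, the enzyme that makes histamine, was at 494, 343 and 274 CPM in WT, 177, 196 and 213 in DF, 98.7, 123 and 150 in TF, and 138 and 124 in TFD. All mutant libraries were below all WT libraries, and the log2 fold change was -0.92 (Padj = 0.00294) in DF, -1.58 (Padj = 0.000106) in TF and -1.50 (Padj = 0.000517) in TFD. Il1rl1, the interleukin 33 receptor, was at 52.4, 60.1 and 57.4 CPM in WT, 8.73, 9.20 and 7.82 in DF, 15.2, 13.3 and 37.2 in TF, and 13.7 and 23.1 in TFD. It fell by 2.71 in DF (Padj = 6.81e-05), by 1.37 in TF (Padj = 0.00463) and by 1.63 in TFD (Padj = 0.00527) on the log2 scale, the last of these lost without TFD replicate 1 (Padj = 0.0607).

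Several genes of granule content and of the cell surface were also lower in mutant marrow. Slc18a2, the vesicular monoamine transporter, fell in TF by 1.15 (Padj = 0.00165) and was higher in DF than TF by 1.02 (Padj = 0.0174, lost without any 1 DF library, up to 0.0715). Srgn, the core protein of granule proteoglycan, fell in TF by 0.50 (Padj = 0.00448) and was higher in DF than TF by 0.58 (Padj = 0.0114, lost without DF replicate 2 or TF replicate 3, up to 0.0752). The basophil receptor gene Cd200r3 fell in TF by 1.23 (Padj = 0.0187), a call lost without TF replicate 1 (0.0748). Itga2, the alpha chain of a collagen-binding integrin, fell by 1.37 in DF (Padj = 0.0106) and 1.89 in TF (Padj = 0.00246). Hpgds, the prostaglandin D synthase, fell in DF by 1.20 (Padj = 0.00894). Hs3st1, a heparan sulfate sulfotransferase, fell by 4.01 in DF (Padj = 0.00226) and 2.56 in TFD (Padj = 0.0298), the latter lost with the replicate block and without WT replicate 1, WT replicate 2 or either TFD library (up to 0.159). Il18r1 fell by 0.57 in TF (Padj = 0.0376), a call lost without WT replicate 2, WT replicate 3, DF replicate 2 or any 1 TF library (up to 0.158). Gzmb rose in DF by 1.28 (Padj = 0.0137, lost without WT replicate 3 or DF replicate 3, up to 0.0648). Ndst2, a heparin-synthesis enzyme, passed the test in DF, TF and TFD with values of 0.32, 0.37 and 0.41 (Padj = 0.0436, 0.0239 and 0.0317), but in DF it was called in 6 of the 18 alternative settings, and not with DESeq2, RLE factors, library totals or only the groups compared, nor without any 1 DF library, WT replicate 2, WT replicate 3, TF replicate 1, TF replicate 2 or TFD replicate 2 (up to 0.168). Its TF and TFD calls were each made in 13 settings, and not with only the groups compared, nor without WT replicate 2 or WT replicate 3, nor without TF replicate 1 or TF replicate 3 for TF or either library for TFD (up to 0.0957 and 0.103). The basophil protease gene Prss34 was not called (log2 fold change -0.67 and Padj = 0.0717 in TF, where all libraries were below WT), nor were Kit, Itga2b and Cyp11a1.

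The transcription factors of these lineages were all 21 in the table. In DF 9 rose and 4 fell, in TF 6 rose and 6 fell, and in TFD 6 rose and 5 fell, where 37.6%, 34.6% and 26.3% of all genes were called. Gata1, needed for eosinophils as well as erythroid and mast cells, was at 36.4, 23.0 and 39.3 CPM in WT, 1.75, 2.06 and 3.07 in DF, 5.33, 11.2 and 24.0 in TF, and 9.76 and 5.97 in TFD. TF replicate 3 reached the WT range and the other mutant libraries stayed below it. Gata1 fell by 3.87 in DF (Padj = 7.46e-05), by 1.30 in TF (Padj = 0.0245) and by 2.05 in TFD (Padj = 0.00734), and was lower in DF than TF by 2.57 (Padj = 0.01, lost without DF replicate 2, 0.0655). Its TF call was lost without WT replicate 1, WT replicate 3, TF replicate 1 or TF replicate 2 (up to 0.0768) and its TFD call without TFD replicate 2 (0.0644).

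Gata2, which acts in basophil and mast cell progenitors, was at 18.0, 14.2 and 14.5 CPM in WT, 12.4, 9.52 and 13.1 in DF, 6.14, 7.04 and 5.20 in TF, and 12.5 and 8.91 in TFD. It was lowest in the TF libraries, and all mutant libraries were below WT. Gata2 fell by 1.35 in TF (SE 0.20, Padj = 0.000294), in all 18 alternative settings, and was higher in DF than TF by 0.92 (Padj = 0.0189, lost without DF replicate 1, DF replicate 3 or TF replicate 3, up to 0.0841). It was -0.43 (Padj = 0.0896) in DF and -0.54 (Padj = 0.079) in TFD. The GATA partner genes Zfpm1 and Tal1, shared with the erythroid lineage, fell in all 3 mutant genotypes, Zfpm1 by 3.32, 1.72 and 2.25 and Tal1 by 2.27, 1.07 and 1.65 in DF, TF and TFD. Ikzf1 fell by 0.53, 0.58 and 0.49 in the same order. Its DF call was lost without DF replicate 2 (0.0589), and its TFD call (Padj = 0.0423) was made in 9 of 18 settings, and not with the replicate block or only the groups compared, nor without any 1 WT library, DF replicate 1, DF replicate 2, TF replicate 1 or TFD replicate 1 (up to 0.269). Of the granulocyte and monocyte factors, Cebpa rose by 1.53, 1.27 and 1.52 and Irf8 by 1.31, 1.71 and 1.43 in DF, TF and TFD. Mitf, which acts in mast cells, rose by 0.65, 0.82 and 0.77. Stat5a rose by 0.28, 0.45 and 0.37 and Stat5b by 0.31, 0.32 and 0.35. The Stat5a call in DF (Padj = 0.0256) was made in 9 of 18 settings, and not with DESeq2, RLE factors, library totals or only the groups compared, nor without any 1 WT library, DF replicate 1 or DF replicate 3 (up to 0.113). Its TFD call was lost with only the groups compared and without TFD replicate 2 (up to 0.0913). The Stat5b calls were lost without WT replicate 3 in all 3 genotypes, in DF also with library totals, only the groups compared and without DF replicate 1 or DF replicate 3 (up to 0.132), in TF without TF replicate 1 or TF replicate 2 (up to 0.0886), and in TFD with the replicate block, only the groups compared and without WT replicate 2 or either TFD library (up to 0.118). Spi1 rose in DF by 0.70 and was called in TF at 0.43 (Padj = 0.0404), in 9 of 18 settings, and not with library totals or only the groups compared, nor without WT replicate 2, WT replicate 3, any 1 DF library, TF replicate 1 or TF replicate 2 (up to 0.16). Id1 rose in DF and TFD, by 0.99 and 0.83, the latter lost without WT replicate 1, WT replicate 3 or TFD replicate 1 (up to 0.103). Cebpb and Xbp1 rose in DF, by 0.65 and 0.43, and the Cebpb call was lost without WT replicate 2, WT replicate 3 or DF replicate 1 (up to 0.0758). Trib1, which was 155, 169 and 143 CPM in WT, fell by 0.92 in TF and 0.77 in TFD, the latter lost without any 1 WT or TFD library (up to 0.146). Cebpe, Id2, Runx1, Bhlhe40, Nfil3 and Lmo4 were not called.

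**Figure D4:**
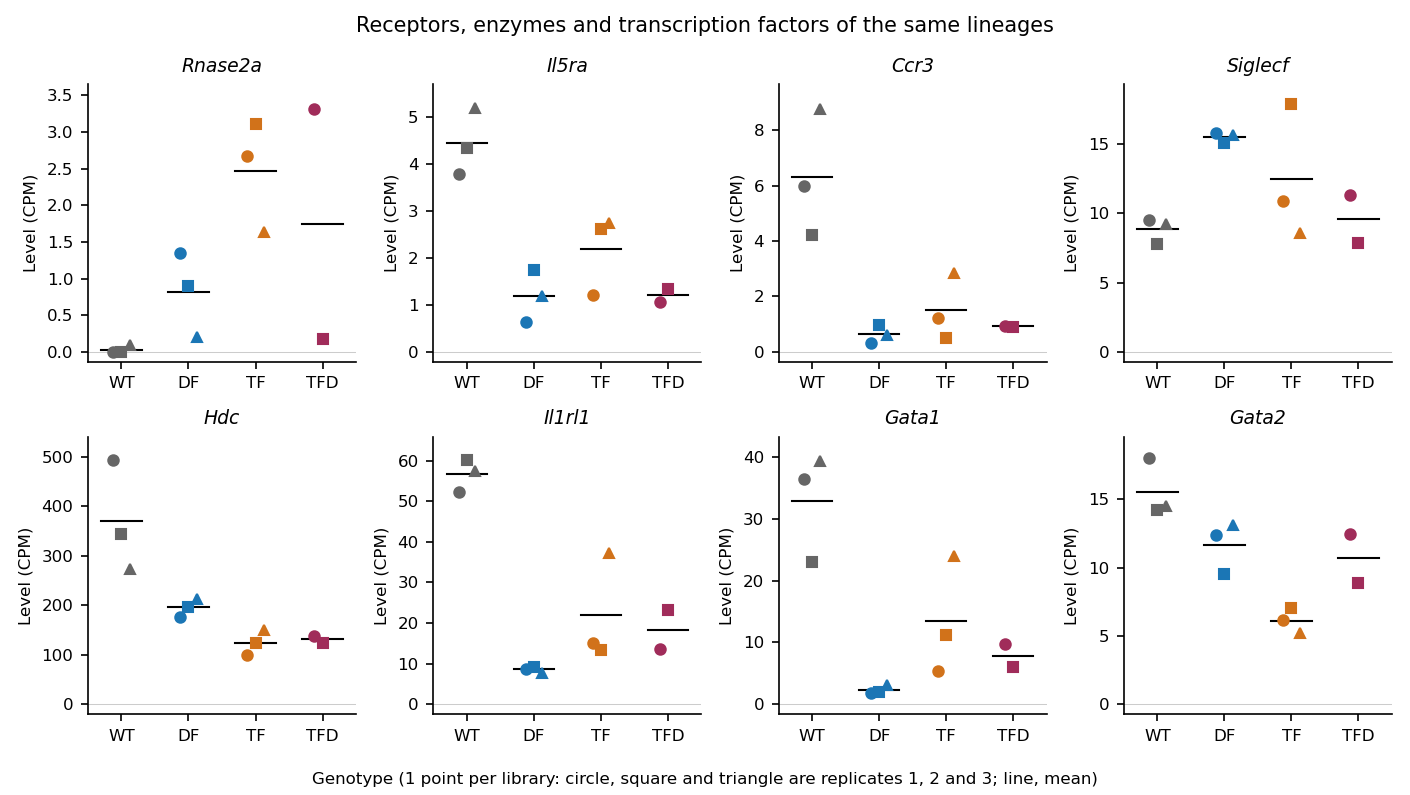
Level in CPM (vertical axis, from 0) of 8 related genes in every library, with 1 point per library and a line at the mean of each genotype. Il5ra, Ccr3, Hdc, Il1rl1 and Gata2 lie below WT in every mutant library, Rnase2a lies above WT, and TF replicate 3 (triangle) is the mutant library nearest to WT for Il1rl1 and Gata1.

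Of 14 growth and alarm cytokine receptors, 5 rose and 4 fell in DF and 4 rose and 4 fell in both TF and TFD, beside the same shares of all genes. Il3ra, the interleukin 3 receptor alpha chain, rose by 1.27 in DF, 1.30 in TF and 1.13 in TFD, and Csf2ra rose by 0.76, 0.62 and 0.63, its TFD call being lost without TFD replicate 1 (0.0881). The largest fall was that of Il7r, a lymphoid receptor, by 4.86, 2.64 and 3.49. Of 16 genes of IgE receptor signalling, 6 rose and 4 fell in DF, 3 rose and 2 fell in TF, and 4 rose and 2 fell in TFD, where 37.6%, 34.6% and 26.3% of all genes were called. The receptor's shared gamma chain Fcer1g, which other Fc receptors of myeloid cells also use, did not follow the alpha and beta chains. It was at 177, 167 and 132 CPM in WT, 260, 239 and 253 in DF, 230, 224 and 201 in TF, and 222 and 187 in TFD, and rose by 0.66 in DF (Padj = 0.00119) and 0.46 in TF (Padj = 0.0113). All mutant libraries were above all WT libraries, and the TF call was lost without WT replicate 3 (0.0521). The adaptor gene Lat2 had the largest rise of this list in each genotype, of 1.08, 1.57 and 1.27 in DF, TF and TFD. The largest falls were Grap2 in DF, by 1.65 (Padj = 0.000212), Syk in TF, by 0.74 (Padj = 0.000344), and Plcg1 in TFD, by 0.684 (Padj = 0.00836). The Plcg1 call was lost without TFD replicate 2 (0.0516).

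Markers of other marrow cells moved in the same libraries. The summed level of 5 classical monocyte markers present in the table of 6 listed ran from 1662 to 1958 CPM in WT and from 5321 to 7660 CPM in the mutant libraries. That of all 7 erythroid markers ran from 1298 to 1676 CPM in WT, from 69.1 to 72.9 in DF, from 221 to 930 in TF and from 184 to 288 in TFD. That of all 6 B cell markers ran from 336 to 396 CPM in WT and from 13.01 to 55.3 CPM in the mutants. The 9 late neutrophil granule markers summed to 51760 to 65180 CPM in WT, 58660 to 82900 in DF, 36940 to 47370 in TF and 23140 to 46480 in TFD. In TF and TFD the sum lay below all WT libraries, as Cpa3, Ms4a2 and Fcer1a did and as 22.9% and 23.5% of all genes did. Of the 9, 3 fell in TF, 1 in TFD and 0 in DF, where 15.6%, 11.6% and 16.6% of all genes were called lower. The 5 early granule markers ran from 2981 to 3139 CPM in WT, 4676 to 6489 in DF, 2753 to 4493 in TF and 3944 to 5735 in TFD. The 4 plasmacytoid dendritic cell markers ran from 54.03 to 62.7 CPM in WT, 0.594 to 2.22 in DF, 14.9 to 86.6 in TF and 1.31 to 8.73 in TFD, so that TF overlapped WT. T cell markers (5) ran from 30.9 to 36.7 CPM in WT, 11.5 to 20.5 in DF, 16.8 to 44.7 in TF and 10.1 to 15.1 in TFD. Nonclassical monocyte markers (10) summed to 382 to 511 CPM in WT and 727 to 912 in the mutants. Of the 10, 2 rose in each mutant genotype, and 2 fell in DF, 1 in TF and 0 in TFD. Their median log2 fold changes were -0.3, 0.11 and 0.36, so the sums do not stand for each of the 10. The 4 stem and progenitor markers of 5 listed summed to 140 to 154 CPM in WT and 222 to 338 in the mutants. Of the 4, 2 rose in each, Flt3 among them, where 21%, 19% and 14.7% of all genes were called higher in DF, TF and TFD. Megakaryocyte markers (5) ran from 43.4 to 62.5 CPM in WT, 34.5 to 43.25 in DF, 25.0 to 46.4 in TF and 33.8 to 116 in TFD. No marker of these lists was at 0 in every library of a genotype. Summed over the 4 basophil and mast cell genes, the level was 89.5, 92.35 and 154 CPM in DF, the last being the highest of all. In WT the summed level was 128 to 143 CPM, in TF 61.7 to 99.2 and in TFD 63.8 to 140. Over the 6 eosinophil genes it was 273 to 355 CPM in WT, 259 to 366 in DF, 266 to 640 in TF and 206 to 326 in TFD, so these sums overlapped in every genotype. The part of the other cell types in the levels of the 10 genes was not tested.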

How the data were processed

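RNA-seq counts were analysed for 11 libraries whose labels gave their genotype, matched to table columns by title. The third TFD sample was not analysed here. The authors extracted RNA from BM cells, removed globin mRNA, prepared TruSeq stranded total RNA libraries, used STAR for unique alignment to mm10 and featureCounts for counts per refGene gene, and retained genes above 0.5 CPM in more than 3 samples. Versions and whether counting used strand are not given in the sources used here, so reads of antisense partners cannot be told apart; no GENCODE exon of another gene overlaps the 10 genes. The deposited counts are whole, unscaled reads of a gene. The deposited log2 CPM values follow from them with a prior count of 0.25 to within 5e-09. The deposited gene length in bases was used for levels per kilobase.

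The members and lists were chosen with earlier results of these data known. Counts were tested with edgeR 4.0.16 in R 4.3.3 (TMM factors of 0.924 to 1.04, 1 mean per genotype, quasi-likelihood F test, Benjamini-Hochberg adjustment over 12175 genes after the filter of 0.5 CPM in more than 3 libraries was applied again, which removed 24 genes). SE is the log2 fold change divided by the root of F, and 95% intervals are the value ± 1.96 SE. Named were the 10 genes, all genes of the lists of further eosinophil genes, further basophil and mast cell genes and transcription factors, the extremes of the other lists and the 5 genes nearest in profile to Prg2, Mcpt8 and Ear2. Apart from these, Tet2, Dnmt3a and Flt3 were given for the mutated alleles, and Csf2ra, Fcer1g, Rpph1 and the Rprl genes were chosen after their values were seen. Totals of 8274153 to 15900904 reads set the depth, a count of 0 allows up to 3 reads, and intervals on reads are exact (Clopper-Pearson) and cover counting error only. Alternatives were DESeq2 1.42.0, RLE factors, library totals, no filter, only the groups compared, a replicate block, a term for Xist (10000 reads or more) and leaving out each library, 18 in all. A 2-fold minimum was applied to the counts of the 10 genes only. The fits were tested on simulated data. Sequence comparisons used GENCODE transcripts of the same build and Biopython 1.88, over stretches of 50 bases, and promoter windows came from RefSeq (GRCm38.p6), with 9 of the 10 genes matched.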

Additional observations from a re-analysis of the deposited data

Results flagged for a closer look

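Ear10 had different changes against WT in DF and TF, with an adjusted p of 0.0242 for the difference (edgeR's quasi-likelihood test), and was the only one of the 10 genes called there. It had 43, 38 and 22 reads in TF and 3, 0 and 0 in DF. Ear10 passed the filter on low counts only through the TF libraries and TFD replicate 1, where it is high, so this p gives no independent support to the difference. The call was lost with DESeq2 (adjusted p = 0.109) and without any 1 DF library (adjusted p from 0.0525 to 0.122). Single outlying libraries were not tested in groups of 2 or 3.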

How the results depend on the processing

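Each of the 60 log2 fold changes (10 genes, 6 comparisons) was recomputed under 18 alternatives, of which 11 leave out 1 library each. Of the 9 called values, 3 were called in every one: Ear1, Ear10 and Ms4a2 in TF versus WT. Changes of sign arose for 24 of the 60 values, and 1 of these was a called value, Ear10 in TFD versus WT without TFD replicate 1. The cause of these changes was not tested.

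The number of the 10 genes called in DF versus WT was 0 with library totals, 3 with only the groups compared and 2 with a replicate block. With DESeq2 it was 0 in TFD versus WT, 1 in TF versus TFD and 1 among the 3 mutant genotypes, where a term for Xist reads also gave 1. Leaving out 1 library gave 0 to 2 genes in DF versus WT, 3 to 7 in TF versus WT, 0 to 3 in TFD versus WT, 0 to 2 in DF versus TF, 0 to 1 in DF versus TFD and 0 to 2 among the mutants. Requiring a 2-fold change as well gave 5 genes in TF versus WT and left the counts of the other 5 comparisons as they were. The settings for the lists of related genes were added after seeing the data. Without 1 library the genes called numbered 5 to 10 (further basophil and mast cell, TF), 2 to 5 (same, TFD), 2 to 4 (further eosinophil, DF), 1 to 3 (same, TFD), 7 to 11 (transcription factors, TFD) and 4 to 8 (receptors, TFD), all against WT. With only the groups compared, 3 IgE signalling genes were called in TFD. Of 119 calls for related genes, 68 were made in all 18 alternatives.

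A pair of values changed sign without a library being left out: Epx in DF versus TFD (-0.030 with library totals) and Ear1 in TFD versus WT (0.022 with a replicate block). Leaving out 1 library turned the sign of the following, given from lowest to highest log2 fold change. In TF versus WT it ran for Prg2 from -0.0013 to 0.73, Epx from -0.21 to 0.44. In TFD versus WT it ran for Prg2 from -0.56 to 0.26, Ear1 from -0.64 to 0.39, Ear2 from -0.41 to 1.19, Ear6 from -0.99 to 0.42, Ear10 from -2.0 to 7.32, Mcpt8 from -0.96 to 0.41. In DF versus TF it ran for Prg2 from -0.57 to 0.16, Ear2 from -0.41 to 0.12. In DF versus TFD it ran for Prg2 from -0.10 to 0.69, Epx from -0.39 to 0.64, Ear2 from -0.19 to 1.44, Ear10 from -7.27 to 3.06, Mcpt8 from -0.63 to 0.76, Cpa3 from -0.029 to 0.90, Ms4a2 from -0.091 to 0.55, Fcer1a from -0.29 to 1.22. In DF versus WT it ran for Ear10 from -2.03 to 3.14, Cpa3 from -0.57 to 0.0080. In TF versus TFD it ran for Ear10 from -0.075 to 8.07, Mcpt8 from -0.91 to 0.46, Cpa3 from -0.77 to 0.14, Fcer1a from -0.75 to 0.74.

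Library totals lowered the share of higher calls from 55.9% (2560 of 4583) to 42.3% in DF versus WT and from 28.1% to 13.9% in DF versus TF, where leaving out 1 library gave 169 to 933 calls over all genes against 723. Replicate numbers did not pair the libraries: of 15 same-numbered pairs, 3 had a correlation of deviations over 0.1 (range -0.299 to 0.247), and the replicate block changed no call of the 10 genes except that Epx was called in DF (adjusted p = 0.0423). Reads limit Ear6 and Ear10, and 2 TFD libraries limit every TFD value.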

Other observations

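Ear10 was not alone in its split of the libraries. Among the 12199 genes of the table, 4 had a gap of more than 2 in log2 CPM between the lowest of the 3 TF libraries and TFD replicate 1 and the highest of the other 7 libraries. These were Ear10 (2.7) and 3 short genes for copies of the RNA component of ribonuclease P, Rprl3 (5.36), Rprl1 (4.93) and Rprl2 (2.66). The latter were found by a search of all genes after the Ear10 values were seen, and this split was not tested. Rprl3 had 2761, 2359 and 3354 reads in TF and 3620 in TFD replicate 1, against 3, 4 and 2 in WT, 58, 4 and 1 in DF and 6 in TFD replicate 2. Rprl1 had 708, 622 and 774 reads in TF and 1062 in TFD replicate 1, with 0 reads in every WT library, 20, 1 and 2 in DF and 0 in TFD replicate 2. Rprl2 had 57, 36 and 74 reads in TF and 87 in TFD replicate 1, with 2, 0 and 0 in WT, 5, 1 and 0 in DF and 0 in TFD replicate 2. DF replicate 1 was the highest of the other 7 libraries for Ear10 and all 3 of these genes.

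Their parent gene Rpph1, the ribonuclease P RNA itself, did not divide the libraries in this way. It had 88846, 103586 and 144268 reads in WT, 304564, 288919 and 229149 in DF, 199369, 164251 and 211260 in TF, and 267137 and 170819 in TFD.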
